A study of Homo sapiens with 2 samples.

Results

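Transcript levels of 10 genes of BMP and TGF-beta signalling were examined in SW620 cells with and without knockdown of SOX2. The genes were the ligands BMP2, BMP4 and INHBB, the receptor BMPR2, the pseudoreceptor BAMBI, the inhibitory SMADs SMAD6 and SMAD7, and the target genes ID1, ID2 and ID3. All probe sets paired with exactly 1 of these symbols were taken, which gave 20 probe sets of 54613 other than array controls, and 10 genes of 19775 with a probe set of their own. SW620 is an established human colorectal cancer line, taken from a lymph node metastasis. Both cultures grew in RPMI-1640 medium and carried a lentiviral short hairpin RNA. In the mock knockdown group it was a hairpin without a target, and in the SOX2 knockdown group it targeted SOX2, a transcription factor best known from pluripotent stem cells. The study asked which genes depend on SOX2 in this kind of cancer cell. Each group held 1 Affymetrix 3′ expression array hybridized from 250 ng of total RNA, so nothing was replicated, no test was possible, and precision is limited by the number of arrays. The labels do not say whether the transduced cells were a clone or a pool, nor how long they carried the hairpin.

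SOX2 itself was lower in the library labelled as its knockdown. The probe set 228038_at read 2077 with the mock hairpin and 20.9 with the SOX2 hairpin, and 213721_at read 333 and 120.5. A sample description names the liver of ECM1 knockout mice, which fits neither the line nor the source names. Of 9 markers of colorectal epithelium, 8 reached the floor defined below on the mock array and all 9 on the SOX2 knockdown array, whereas ALB, the plasma albumin of hepatocytes, stood at 21.5 and 19.98. The summed intensity of the epithelial markers was 50517 and 63295, although VIL1, a protein of the microvilli, went from 2063 to 867. The summed intensity of 4 hepatocyte markers went from 534 to 4558, almost all of it from SERPINA1 at 313 and 4301. That of 3 leukocyte markers went from 396 to 188, through LAPTM5 alone at 318 and 107. The others lay under the floor on both arrays, CD3E at 61.6 and 61.5 and PTPRC at 16.7 and 19.9. The summed intensity of 5 fibroblast markers was 521 and 429.9, and that of 3 endothelial markers 256 and 224. The floor was reached on the mock array by 3 of 4 hepatocyte, 1 of 3 leukocyte, 3 of 5 fibroblast and 2 of 3 endothelial markers, and on the SOX2 knockdown array by 3, 1, 2 and 2 of them. The part of these differences in the results below was not tested. In RNA from a whole culture, fewer cells of a type and less RNA per cell cannot be told apart.

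BMP and TGF-beta ligands bind pairs of type I and type II receptor kinases at the cell surface. The receptors phosphorylate SMAD proteins, which join SMAD4 and regulate genes in the nucleus. BMP signals induce the ID genes, whose helix-loop-helix proteins bind other factors without touching DNA, and they induce SMAD6 and SMAD7, which block the receptors in a negative feedback. BAMBI resembles a type I receptor but lacks the kinase domain. In the colon, BMP signals act mainly on the differentiating cells of the upper crypt, while antagonists are made around the stem cells at the crypt base.

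The ligands BMP2 and BMP4, the receptor BMPR2 and both inhibitory SMADs were higher on the SOX2 knockdown array, and BAMBI and the activin subunit INHBB were far lower. The ID genes did not differ alike, with ID2 higher by more than 2-fold, ID1 by less, and ID3 lower. Differences are log2 values of the SOX2 knockdown array minus those of the mock array. The floor of 68.5, or 6.10 on the log2 scale, is the median of all values that are not controls. The value of a gene is that of its brightest probe set, the one with the highest mean log2 value over both arrays. Where that probe set lay under the floor on 1 array, the difference against the floor is given as a bound. By this measure 6 of the 10 genes passed the limit of 2-fold upwards and 2 downwards. Among all 13609 genes that reached the floor on at least 1 array, 8.44% were at least 2-fold higher and 7.29% at least 2-fold lower. The median difference was 1.12 over the 10 genes and -0.0063 over all genes. With the probe set of smallest difference taken for each gene, the median over the 10 genes was 0.21. Then 4 genes passed upwards, without BMPR2 and SMAD6, and 2 downwards, against 11.66% of all genes either way. Of the 20 probe sets 18 reached the floor. Among these, 10 were at least 2-fold higher and 2 at least 2-fold lower, against 7.52% and 6.6% of all 29039 probe sets that reached it, and 12 passed the limit in either direction, against 14.1%. BMP2, BAMBI and ID3 reached the floor on only 1 array, so for them the entry rule itself favours a difference. The genes were chosen with earlier results of these data known, and the counts are a description of them.

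**Figure D1:**
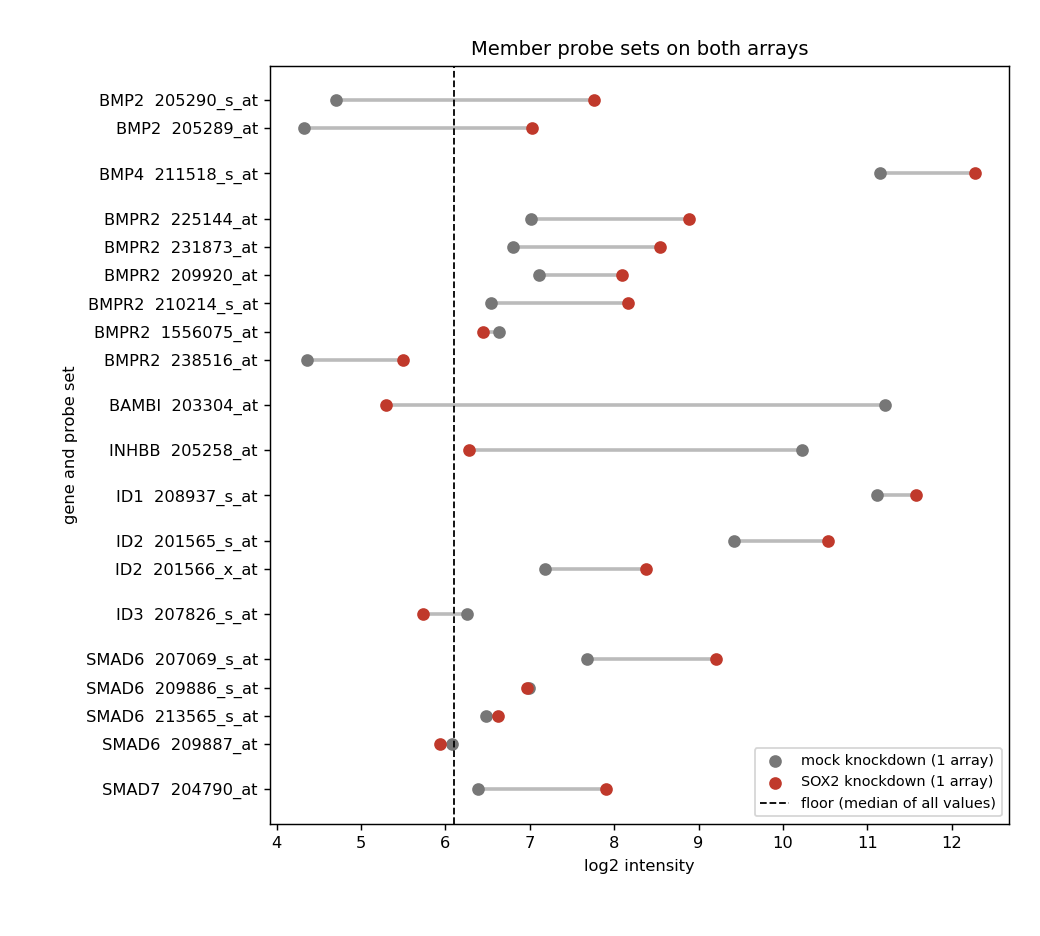
Log2 intensity of each of the 20 probe sets on the mock knockdown array (grey) and the SOX2 knockdown array (red), 1 array per group, with the floor of 6.10 as a dashed line. BAMBI crosses the floor downwards and BMP2 upwards, while INHBB ends just above it; brightness differs between probes and is not compared between probe sets.

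BMP2 and BMP4 are closely related ligands that signal through BMPR2. The brighter probe set of BMP2, 205290_s_at, stood at 25.9 with the mock hairpin and 217 with the SOX2 hairpin, a log2 difference of 3.07 as deposited. Its other probe set, 205289_at, stood at 20.02 and 130.2, a difference of 2.70. Both lay under the floor on the mock array and above it on the SOX2 knockdown array. Against the floor, BMP2 was at least 3.17-fold higher by the first probe set and at least 1.90-fold by the second. BMP4 has 1 probe set, 211518_s_at, which stood well above the floor on both arrays, at 2277 and 4965. BMP4 was 2.18-fold higher with the SOX2 hairpin, which is 1.12 on the log2 scale and close to the limit of 2-fold.

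INHBB encodes the beta B subunit of activin B and inhibin B, ligands of the TGF-beta side of the family. Its single probe set, 205258_at, stood at 1197 with the mock hairpin and 77.7 with the SOX2 hairpin. INHBB was 15.4-fold lower, a log2 difference of -3.94. The lower value lay just above the floor of 68.5, and 6.50% of the mock value was left.

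BAMBI had the largest difference of the 10 genes. Its single probe set, 203304_at, stood at 2362 with the mock hairpin and 39.2 with the SOX2 hairpin, a log2 difference of -5.91 as deposited. The lower value lay under the floor, so BAMBI was at least 34.5-fold lower, with a bound of -5.11. With 1 probe set for each, the differences of BAMBI and INHBB have no second probe set to be compared with.

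BMPR2, the type II receptor of BMP ligands, has 6 probe sets, and they did not give 1 answer. The brightest, 225144_at, stood at 129.7 with the mock hairpin and 471 with the SOX2 hairpin, a difference of 1.86 or 3.63-fold. Close to it were 231873_at, at 112 and 374, and 210214_s_at, at 93.1 and 287, with differences of 1.74 and 1.63. The probe set 209920_at stood at 138 and 273, a difference of 0.99. These 4 probe sets were all higher on the SOX2 knockdown array. The probe set 1556075_at stood at 99.1 and 87.0, a difference of -0.19, and so was slightly lower. The last, 238516_at, read 20.6 and 45.2 and did not reach the floor. Across all genes with several probe sets at the floor, the SD between probe sets of a gene was 0.49 on the log2 scale, and it is measured within this pair of arrays only.

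**Figure D2:**
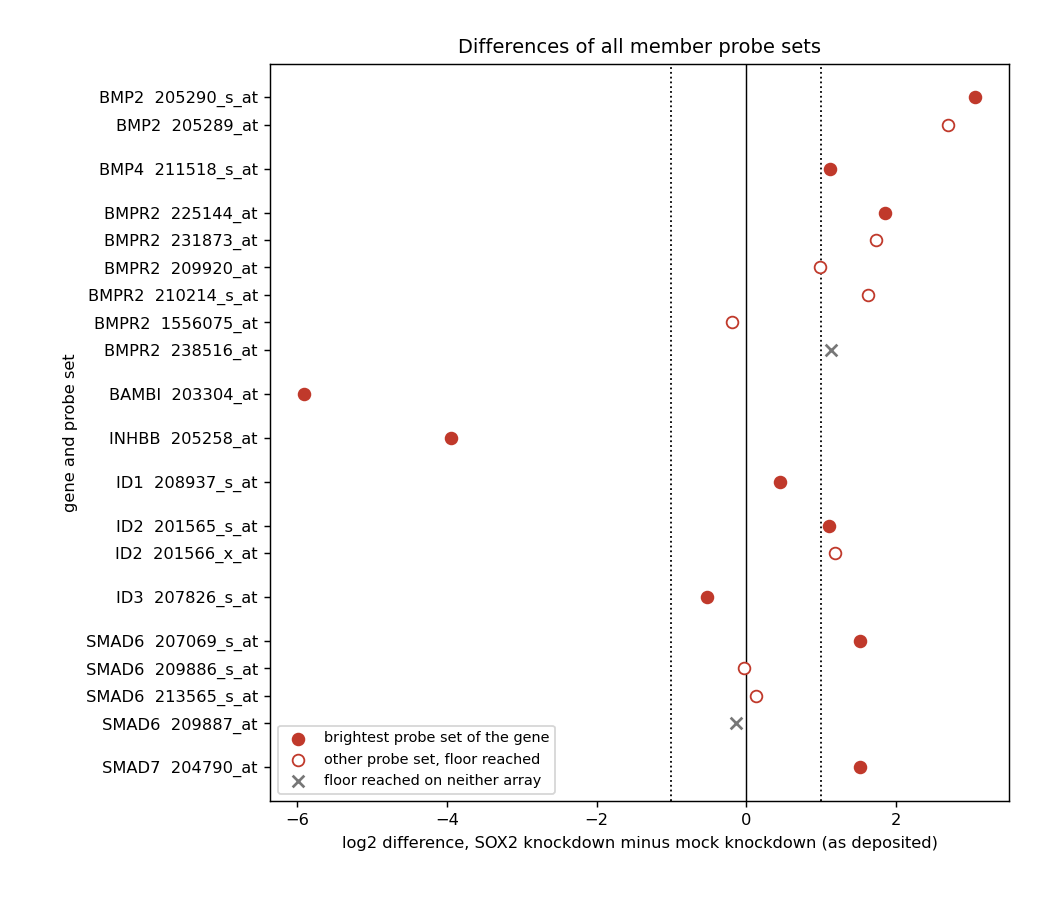
Log2 difference (SOX2 knockdown minus mock knockdown, as deposited) of each of the 20 probe sets, with filled points for the brightest probe set of a gene, open points for others that reached the floor and crosses for those that reached it on neither array; dotted lines mark 2-fold. The probe sets of BMP2 and of ID2 lie close together, while those of BMPR2 run from -0.19 to 1.86 and those of SMAD6 at the floor from -0.03 to 1.52.

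SMAD6 and SMAD7 encode the inhibitory SMADs, SMAD6 acting mainly on BMP signals and SMAD7 on both branches. SMAD7 has 1 probe set, 204790_at, which stood at 83.3 with the mock hairpin and 239 with the SOX2 hairpin, 2.87-fold higher with a log2 difference of 1.52. The brightest probe set of SMAD6, 207069_s_at, stood at 205 and 590, also 2.87-fold higher with a difference of 1.52. The other probe sets of SMAD6 did not show this. Of them 209886_s_at stood at 128 and 125, a difference of -0.03, and 213565_s_at at 89.5 and 98.1, a difference of 0.13. The last, 209887_at, lay under the floor on both arrays, at 67.4 and 61.2. The higher level of SMAD6 therefore rests on 1 of its 3 probe sets at the floor, and the mean difference over these 3 was 0.54.

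ID1, ID2 and ID3 are direct targets of BMP SMADs in many cells and hold back differentiation factors of the basic helix-loop-helix class. ID2 was higher in both of its probe sets. The brighter, 201565_s_at, stood at 687 with the mock hairpin and 1486 with the SOX2 hairpin, a difference of 1.11 or 2.16-fold. The other, 201566_x_at, stood at 145 and 332, a difference of 1.19. ID1, measured by 208937_s_at, was bright on both arrays, at 2224 and 3045, and its difference of 0.45 or 1.37-fold did not reach the limit of 2-fold. ID3, measured by 207826_s_at, stood at 76.3 and 53.0, a difference of -0.53 as deposited. Both ID3 values lay near the floor, and against the floor its difference was only -0.15. ID4, the remaining gene of this family, stood at 90.7 and 83.2 on its brightest probe set, a difference of -0.12.

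**Figure D3:**
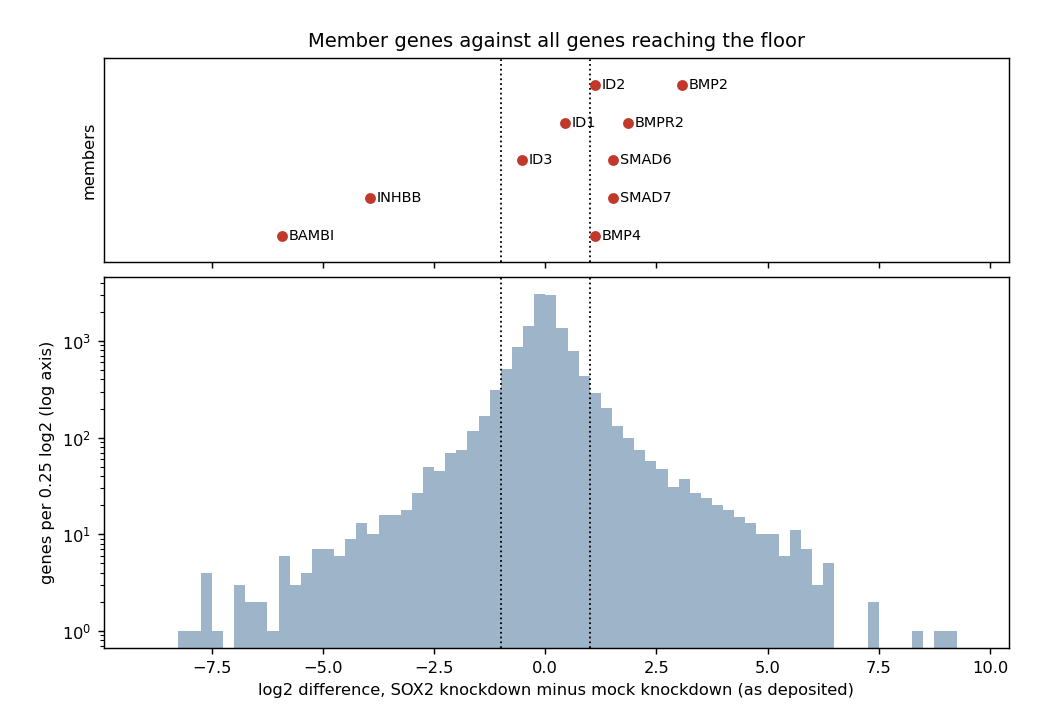
Upper panel, the log2 difference of the brightest probe set of each of the 10 genes (height has no meaning); lower panel, the number of genes per 0.25 log2 for all 13609 genes that reached the floor, on a log axis, with dotted lines at 2-fold. BAMBI at -5.91 and INHBB at -3.94 lie far out on the left, and 6 genes lie to the right of the upper 2-fold line, from ID2 at 1.11 to BMP2 at 3.07.

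The promoters of the 10 genes other than BMP2 were read for motifs of the factors concerned, and 5 are shown because they belong to the genes lower on the SOX2 knockdown array (BAMBI and INHBB) and to examples of the receptor, feedback and target genes that were higher (BMPR2, SMAD6 and ID2). Each is the stretch of 250 bases before a RefSeq start site in build GRCh38.p14, 5′ to 3′ on the strand of the gene. Capitals mark CAGAC or its reverse complement GTCTG (the SMAD box), GGCGCC (a GC-rich element of BMP SMADs, its own reverse complement), ACAAT or ATTGT (the core bound by SOX proteins) and TATAAA or TTTATA (the TATA box), searched on both strands. The stretches lie at chr10:28677271-28677520 on the plus strand for BAMBI, chr2:120345886-120346135 on the plus strand for INHBB, chr2:202376077-202376326 on the plus strand for BMPR2, chr15:66701986-66702235 on the plus strand for SMAD6 and chr2:8681806-8682055 on the plus strand for ID2.
BAMBI: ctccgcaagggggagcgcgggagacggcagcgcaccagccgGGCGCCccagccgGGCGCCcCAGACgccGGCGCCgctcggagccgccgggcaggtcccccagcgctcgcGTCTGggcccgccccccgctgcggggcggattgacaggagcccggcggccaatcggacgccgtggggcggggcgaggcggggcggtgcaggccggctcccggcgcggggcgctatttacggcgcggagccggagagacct
INHBB: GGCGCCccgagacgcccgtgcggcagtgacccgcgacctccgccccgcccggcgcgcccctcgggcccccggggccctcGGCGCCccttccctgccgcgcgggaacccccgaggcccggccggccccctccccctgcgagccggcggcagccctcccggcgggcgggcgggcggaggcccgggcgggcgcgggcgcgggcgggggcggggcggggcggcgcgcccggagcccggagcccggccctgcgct
BMPR2: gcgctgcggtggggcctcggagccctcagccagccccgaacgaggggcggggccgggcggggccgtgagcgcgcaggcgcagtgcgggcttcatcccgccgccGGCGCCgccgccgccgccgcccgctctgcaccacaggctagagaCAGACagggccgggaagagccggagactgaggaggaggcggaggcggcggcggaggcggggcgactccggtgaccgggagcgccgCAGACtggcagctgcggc
SMAD6: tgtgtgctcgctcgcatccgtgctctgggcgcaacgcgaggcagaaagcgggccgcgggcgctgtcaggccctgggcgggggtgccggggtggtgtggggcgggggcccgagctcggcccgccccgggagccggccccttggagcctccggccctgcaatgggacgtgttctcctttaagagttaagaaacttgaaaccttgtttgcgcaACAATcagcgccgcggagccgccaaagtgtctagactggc
ID2: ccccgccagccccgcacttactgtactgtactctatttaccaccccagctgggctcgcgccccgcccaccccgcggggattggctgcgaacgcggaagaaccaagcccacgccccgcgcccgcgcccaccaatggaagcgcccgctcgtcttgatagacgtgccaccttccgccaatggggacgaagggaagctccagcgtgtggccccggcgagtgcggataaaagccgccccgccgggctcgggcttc

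In the BAMBI promoter, GGCGCC occurred 3 times and the SMAD box 2 times, with first bases 209 to 140 bases before the start and no overlap between them. The INHBB promoter, with a G and C content of 89.6%, held GGCGCC 2 times and no SMAD box. The BMPR2 promoter held 2 SMAD boxes and 1 GGCGCC, the SMAD6 promoter 1 SOX core beginning 40 bases before the start, and the ID2 promoter none of these letters. RefSeq windows were found for 9 of the 10 genes, with 3 start sites each for BMP4 and SMAD7, 13 in all. The SMAD box was in 7 of the 13 windows, against 38.0% of 35116 windows of all genes, and GGCGCC in 4 of 13, against 16.4%. The 4 windows with GGCGCC had a G and C content of 63.6% to 89.6%, against a median of 58% over all windows. The SOX core was in 1 of 13, against 24.6%, and the TATA box in 2 of 13, against 10.7%. The overlapping copies of TATAAA and TTTATA in ID1 are the same site read on both strands. Such matches are descriptions of letters in this window and show no binding, and windows of 1 gene share its locus.

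The rest of the pathway was described from a list of 95 further genes, of which 87 had a probe set of their own and 62 reached the floor. Of these, 5 were at least 2-fold higher and 7 at least 2-fold lower, 12 in all against 15.7% of all genes. Their median difference was 0.02. INHBE, BMP5, SNAI2 and MSX1 reached the floor on the mock array only, and SOSTDC1 on the SOX2 knockdown array only. For these genes the entry rule itself favours a difference. Among 16 ligands at the floor none was at least 2-fold higher and 2 were lower, against 8.44% and 7.29% of all genes. This count uses the brightest probe sets, and other probe sets of TGFB2, BMP7 and GDF11, given below, differed by more than 2-fold. INHBE, another inhibin beta subunit, stood at 603 and 20.6 and was at least 8.80-fold lower, as INHBB was lower. BMP5 stood at 160.0 and 34.3 and was at least 2.34-fold lower.

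**Figure D4:**
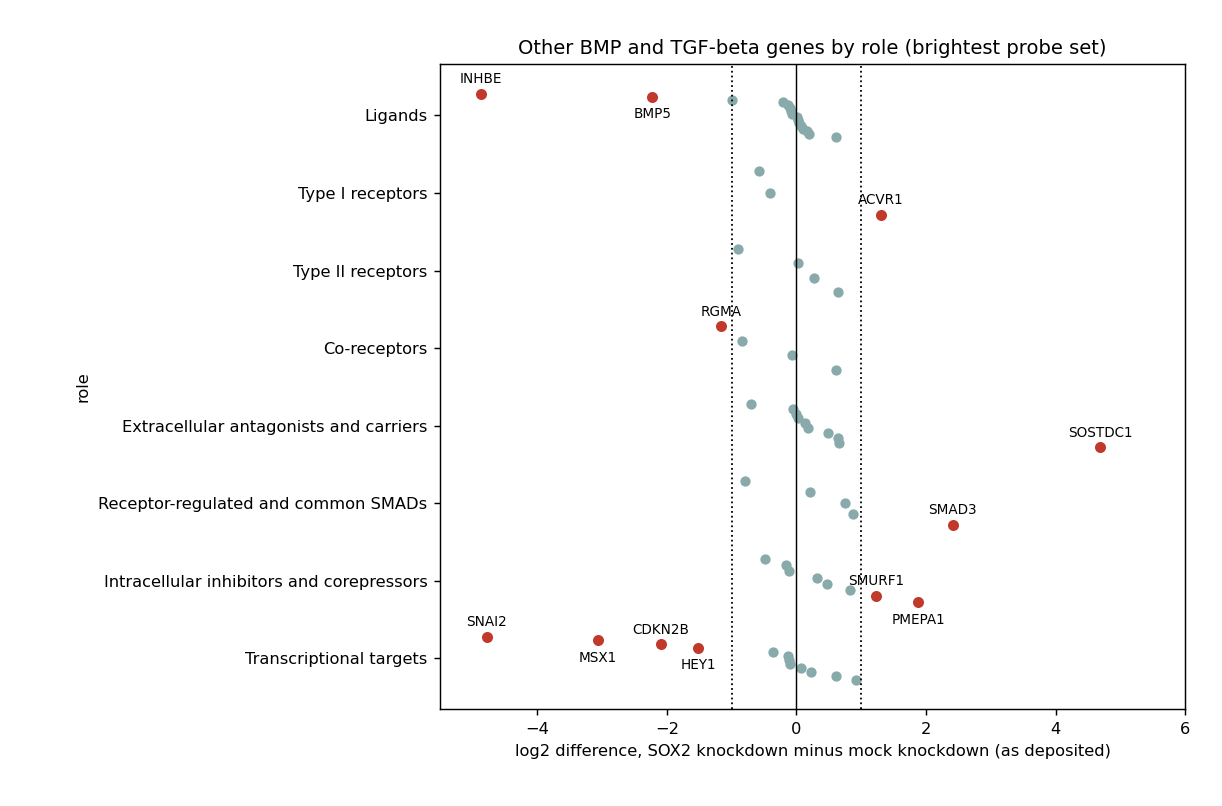
Log2 difference (SOX2 knockdown minus mock knockdown, as deposited) of the brightest probe set of 62 further BMP and TGF-beta genes that reached the floor, by role; red points with names are at least 2-fold apart and dotted lines mark 2-fold. SMAD3, PMEPA1, SMURF1, ACVR1 and SOSTDC1 lie to the right and 7 genes to the left, 4 of them transcriptional targets.

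By their brightest probe sets, receptors other than BMPR2 differed less than its 1.86. Averaged over its probe sets at the floor, BMPR2 differed by 1.21, beside 1.31 for the single probe set of ACVR1. ACVR1, a type I receptor used by BMP ligands, stood at 367 with the mock hairpin and 908 with the SOX2 hairpin, 2.47-fold higher. The other 2 type I receptors at the floor, ACVR1B and TGFBR1, differed by -0.58 and -0.41. BMPR1A, also a type I receptor on the list, had no probe set of its own. None of the 4 further type II receptors differed by 2-fold, and they ran from -0.90 for ACVR2B to 0.65 for TGFBR2, the main TGF-beta receptor of this type. Of 4 co-receptors at the floor RGMA, which binds BMP ligands, stood at 252 and 113, a difference of -1.16, though its other probe set differed by -0.09. Of 10 extracellular antagonists and carriers at the floor only SOSTDC1, a secreted antagonist of BMP and Wnt signals, was at least 2-fold apart. It stood at 26.6 and 688 and was at least 10.04-fold higher.

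Inside the cell, SMAD3, which carries TGF-beta and activin signals, was the receptor-regulated SMAD with the largest difference. Its brightest probe set stood at 309 and 1641, 5.32-fold higher, and its 4 probe sets differed by 0.71 to 2.41. SMAD1, which carries BMP signals, differed by -0.80, SMAD5 by 0.75 and SMAD2 by 0.87. SMAD4, the common partner, reached the floor on 1 of its 5 probe sets, which stood at 77.1 and 89.2. Of 8 intracellular inhibitors and corepressors, PMEPA1, which is induced by TGF-beta and limits it, stood at 951 and 3496, 3.68-fold higher, and its 3 probe sets differed by 0.91 to 1.88. SMURF1, a ubiquitin ligase for SMADs and receptors, was 2.35-fold higher, but its other probe sets at the floor differed by 0.12 and -0.23. SMURF2, a relative of SMURF1, differed by -0.48 on its brightest probe set, but its 4 probe sets ran from -0.48 to 0.78. SKIL, a corepressor of SMADs, differed by 0.32 on its brightest probe set and by up to 0.98 on the others at the floor.

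Of 12 further transcriptional targets at the floor, 4 were lower by at least 2-fold and none was higher by as much, against 7.29% and 8.44% of all genes. Of the lower ones SNAI2 and MSX1 reached the floor on the mock array only, so for them the entry rule itself favours a difference. SNAI2, a repressor of E-cadherin, stood at 325 and 11.9 and was at least 4.74-fold lower. MSX1, a homeobox factor downstream of BMP, stood at 382 and 45.8 and was at least 5.57-fold lower, though its other probe set differed by -0.43. CDKN2B, an inhibitor of cell cycle kinases, differed by -2.09 and by -0.38 on its other probe set. HEY1, which the rule for named genes left out and which was named after its values were seen, differed by -1.52 and by -0.77 on its other probe set. CDKN1A, also a cell cycle inhibitor, differed by 0.93, JUNB by 0.61 and TGFBI by -0.11.

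For 6 genes of the wider list the brightest probe set differed by under 2-fold while another probe set at the floor differed by more. TGFB2, a TGF-beta ligand, stood at 87.2 and 91.2 on its brightest probe set. Its probe set 228121_at, however, stood at 23.6 and 303 and was at least 4.42-fold higher. Another, 209909_s_at, stood at 11.2 and 125 and was at least 1.83-fold higher. BMP7, a BMP ligand, differed by -0.13 on its brightest probe set, whereas 209590_at stood at 413 and 53.9 and was at least 6.03-fold lower. Its probe set 209591_s_at stood at 393 and 29.1 and was at least 5.74-fold lower, and 211259_s_at differed by -0.69. GDF11, an activin-like ligand, differed by 0.11 on its brightest probe set. Its other probe sets at the floor differed by -0.98 on 226232_at, -1.27 on 226234_at and -1.70 on 216860_s_at. The other genes of the 6 were SKI, SMAD5 and TGFBR3, whose largest differences either way were 1.02, 1.28 and -1.15. An alternative chosen after seeing the data took the probe set of the highest single value in place of the brightest on average. The list then held 6 genes at least 2-fold higher and 9 as much lower, against 16.74% of all genes either way. The counts of the 10 genes stayed at 6 and 2.

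The genes closest in pattern were taken by the Euclidean distance between the pairs of log2 values over the 2 arrays, a measure that includes how brightly each probe set responds. It is not given for BAMBI and BMP2, which lay under the floor on 1 array. Nearest to INHBB were SNX10 and CHN1, at distances of 0.04 and 0.19, with differences of -3.89 and -3.84. BMP4 lay closest to TFDP1 and CHMP4B, and BMPR2 to SLC37A1 and PRR5L. ID2 lay closest to SULF2 and HOXB3, SMAD6 to MTMR10 and CLIC5, and SMAD7 to ACSF2 and GABPB1-IT1. Each such likeness rests on 2 values per gene.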

How the data were processed

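The authors deposited 1 intensity per probe set and array, on a linear scale judged from values that reach 23253. They used RMA, per the submitters' processing notes. Its version and settings are not stated in the labels. This method subtracts background, forces arrays to 1 distribution and fits a summary over each probe set, so a change in total RNA is hidden and there is no detection call. Of 54675 probe sets, 62 controls were left out. The platform annotation paired 41091 of the rest with 1 symbol and 1801 with several, and 11721 were unnamed here. By Entrez identifier 41037 of the first kind were found in a RefSeq table of GRCh38.p14, which changed 0 symbols. No pseudocount was added before log2 and no further normalization was applied.

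The 10 genes, the wider list of 95 and the rule for named genes were chosen with earlier results of these data known. The rule named the 10 genes, from the wider list up to 3 genes per role and direction at least 2-fold apart, and the 2 genes nearest to each of the 10 genes that was at least 2-fold apart, leaving out provisional symbols, here also leaving out those of BMP2 and BAMBI. No test was run on 1 array per group, and the limit of 2-fold is a size, not a significance. Alternatives covered normalization, floor, probe set per gene, a pseudocount of 32 and limits of 1.5-fold and 3-fold. A probe set ending in _s_at can match several transcripts and one ending in _x_at can cross-hybridize. The counting was tested on simulated data. Python 3.11.15, numpy 2.4.6, pandas 2.3.3 and matplotlib 3.10.9 were used.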

Additional observations from a re-analysis of the deposited data

How the results depend on the processing

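No paired analysis was possible because each group holds 1 array. Changes smaller than the SD of 0.49 between probe sets of a gene, or counts within 1.5 times, were taken as unmoved. Under the 3 other normalizations between the arrays, every count and median stayed unmoved and no gene changed direction. Requiring the floor on both arrays left 7 of the 10 genes, without BMP2, BAMBI and ID3. Of these 7, 5 exceeded the 2-fold limit upwards and INHBB alone downwards, beside 12.25% of all genes in either direction. Among the probe sets of the 10 genes, 8 then lay beyond the limit upwards and 1 downwards. The wider list kept 57 genes, with 4 beyond the limit upwards and 3 downwards. With the probe set of smallest difference, BMPR2 differed by -0.19 and SMAD6 by -0.025, both reversed, and the median over the 10 genes was 0.21. In the wider list 2 genes were then higher and 3 lower, against 11.66% of all genes either way. Leaving out _s_at and _x_at probe sets kept only 5 of the 10 genes, since BMP4, the ID genes and SMAD6 gave no value. All 5 exceeded the 2-fold limit, BMP2, BMPR2 and SMAD7 upwards and BAMBI and INHBB downwards. The share of all genes beyond it in either direction was 15.77%. In the wider list 50 genes remained, with 5 beyond the limit upwards and 3 downwards. With a limit of 1.5-fold 15 genes of the wider list were higher and 12 lower, against 29.8% of all genes either way. With a limit of 3-fold 2 of the 10 genes were higher and 2 lower, against 7.87% of all genes either way. Of their probe sets 5 were then higher and 2 lower, and of the wider list 3 genes were higher and 5 lower. Averaged over probe sets BMPR2 differed by 1.21 and SMAD6 by 0.54. With a pseudocount of 32 BMP2 differed by 2.10 and BAMBI by -5.07. Signal near the floor limits BMP2, BAMBI, INHBB, ID3 and SMAD7.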

Other observations

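The probe set 213931_at is paired with both ID2 and its copy ID2B and was left out of the values of ID2. It read 69.9 with the mock hairpin and 124 with the SOX2 hairpin, a log2 difference of 0.82, beside 1.11 and 1.19 for the probe sets paired with ID2 alone. The probe set 202527_s_at of SMAD4 stood at 13.8 and 32.1, under the floor on both arrays.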
